A study of Mus musculus with 16 samples.

Results

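Transcripts of 7 genes of red cells and of the first step of heme synthesis were followed in mouse liver: the adult globin genes Hba-a1, Hba-a2, Hbb-bs and Hbb-bt, the red cell carbonic anhydrase gene Car1, the erythroid aminolevulinate synthase gene Alas2 and its counterpart in hepatocytes and most other cells, Alas1. The genes were taken by name, and all 7 were present among the 25006 genes of the count table and passed the filter on low counts that kept 13180 genes. The livers came from C57BL/6 mice, an inbred strain, that drank either plain control water or water with antibiotics. Each mouse received 1 gavage of a slurry of chow or of fast food, and the liver was taken 4 h later. The 4 combinations (chow with control water, fast food with control water, chow with antibiotic water, fast food with antibiotic water) had 4 libraries each. The antibiotics, their dose and duration, and the age and sex of the mice are not stated in the labels. Whether each library is a separate mouse is not stated either, and the p-values measure the spread between these samples.

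Heme is built from glycine and succinyl-CoA in a chain of enzymes that begins and ends in the mitochondrion. Its first step is catalysed by one of the aminolevulinate synthases: ALAS1 supplies heme to hepatic enzymes such as the cytochromes P450 and is repressed by heme, whereas ALAS2 supplies the heme of hemoglobin in developing red cells. Circulating red cells of mammals, above all reticulocytes, still hold globin mRNA, so that blood left in a dissected organ carries these transcripts with it.

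Library totals ran from 8954378 to 18954655 counts. The share of counts in 4 features that collect ribosomal RNA-like reads (Lars2, Mir6236, Gm20594 and Mir6240) ran from 0.12% to 0.587% in 9 libraries (low share) and from 2.45% to 8.42% in 7 (high share). Fast food antibiotic replicate 2 was the lowest of its group in Alas2 and Car1, within the range of the chow antibiotic libraries in both, and the calls of these genes and the main list counts that moved without it are also given without it. The hepatocyte markers were abundant in every library, with a summed level of 121010 to 256830 CPM (counts relative to the TMM-scaled library size) over 8 genes. The globins were a trace: together they took 0.00232% to 0.0291% of the counts.

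The paired globin genes are nearly the same in sequence, which bears on their separate counts. The coding sequences of Hba-a1 and Hba-a2 differ at 1 of 426 bases, and those of Hbb-bs and Hbb-bt at 1 of 441. The coding stretches around these differences are shown 5′ to 3′, read from the GENCODE M21 transcripts (GRCm38), with the differing base in capitals. Bases are counted from the start of the coding sequence, 361 to 401 in the alpha pair and 397 to 437 in the beta pair.
Hba-a1: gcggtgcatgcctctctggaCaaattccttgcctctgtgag
Hba-a2: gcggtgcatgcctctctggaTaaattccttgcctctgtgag
Hbb-bs: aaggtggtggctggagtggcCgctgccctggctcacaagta
Hbb-bt: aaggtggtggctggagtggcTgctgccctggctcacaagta
Of all 50-base windows, the length of the reads, 67.5% of those of the Hba-a1 transcript also occur in Hba-a2, and 86.9% of those of Hba-a2 in Hba-a1. In the beta pair the shares were 65.8% for Hbb-bs and 58.3% for Hbb-bt. How the counting treated reads with several matches is not given in the sources used here, so the split of counts within each pair, and the level of each globin, is uncertain. Alas1 and Alas2 share no such window.

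The alpha globin genes lie on the plus strand of chromosome 11 (GRCm38, GENCODE M21), Hba-a1 at chr11:32283511-32284465 and Hba-a2 at chr11:32296489-32297298. The beta globin genes lie on the minus strand of chromosome 7, Hbb-bs at chr7:103826534-103828096 and Hbb-bt at chr7:103812524-103813996. Alas2 lies at chrX:150547375-150570638 (plus), Car1 at chr3:14766216-14808368 (minus) and Alas1 at chr9:106233455-106248654 (minus). Of the exon bases of Alas2 and Alas1, 372 and 465 overlap genes on the other strand. The strand setting of the counting is not given in the sources used here, and reads from those bases cannot be assigned to a strand.

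Sequences upstream of the start sites were at hand in RefSeq (GRCm38.p6) for 6 of the 7 genes, with a pair of starts for Alas1. The 250 bases before each start were searched on both strands for 4 motifs classically described in globin promoters. They were GATAA, the core bound by GATA factors, the CACCC box, the CCAAT box and the TATAA core. Among 32851 mouse promoters of that length, 22.6% hold GATAA, 52% CACCC, 33.8% CCAAT and 22.8% TATAA. All 4 motifs occur in each of the 4 globin windows. The Alas2 window holds GATAA on the reverse strand 86 bases before the start and 3 CACCC on the reverse strand, with no CCAAT. In both Alas1 windows there is no GATAA, and the CCAAT box and the TATAA core are likewise not matched. For Hba-a2 (chr11:32296242-32296488, plus), Hbb-bs (chr7:103827929-103828011, minus) and Alas2 (chrX:150547167-150547374, plus) only part of the window is shown. It is the longest stretch without an untranslated exon annotated by GENCODE, with matches on either strand in capitals. The Hbb-bs stretch leaves out the GATAA and CACCC matches of its window. The Alas2 stretch leaves out its 3 CACCC matches.
Hba-a2: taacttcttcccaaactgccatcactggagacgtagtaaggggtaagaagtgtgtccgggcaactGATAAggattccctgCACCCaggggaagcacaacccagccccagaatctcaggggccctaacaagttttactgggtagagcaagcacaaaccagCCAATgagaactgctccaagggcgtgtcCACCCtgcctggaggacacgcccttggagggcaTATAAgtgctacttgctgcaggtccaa
Hbb-bs: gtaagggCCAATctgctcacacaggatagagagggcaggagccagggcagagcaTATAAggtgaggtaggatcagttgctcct
Alas2: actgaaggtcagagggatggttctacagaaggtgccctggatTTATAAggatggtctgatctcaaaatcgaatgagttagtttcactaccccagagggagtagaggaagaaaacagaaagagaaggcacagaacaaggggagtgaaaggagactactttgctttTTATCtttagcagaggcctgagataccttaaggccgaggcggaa
The alpha globin promoters share an unbroken run of 297 of 300 bases around the start, whereas the longest run shared by the beta globin promoters is 14 bases. A match is a description of letters and not of binding.

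Levels per kilobase used the union of all annotated exons of a gene, 768 bases for Hbb-bs and 6174 for Alas1. In livers of chow-fed mice on control water they were 111 ± 42.6 and 126 ± 34.8 CPM per kb (SD, n = 4). The nearness of these values depends on that length. The transcripts compared above for shared windows have 628 bases for Hbb-bs and 3089 for Alas1, and by those Alas1 stands further above Hbb-bs. Alas2 followed with 16.7 ± 3.8 CPM per kb, ahead of Hbb-bt (13.1 ± 6.38), Hba-a1 (6.37 ± 2.88), Hba-a2 (6.11 ± 2.91) and Car1 (1.26 ± 0.449). Alpha globin counts were 0.0652 to 0.119 of the beta globin counts in a library, a range uncertain for the reason given above. By mean CPM the order of the groups was the same for 6 of the genes: fast food with control water, fast food with antibiotic water, chow with control water, chow with antibiotic water. For Car1 the middle pair changed places. The fast food antibiotic libraries spanned the whole range of the chow control libraries in all 4 globins and Alas2, so that this middle pair cannot be ordered for them.

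**Figure D1:**
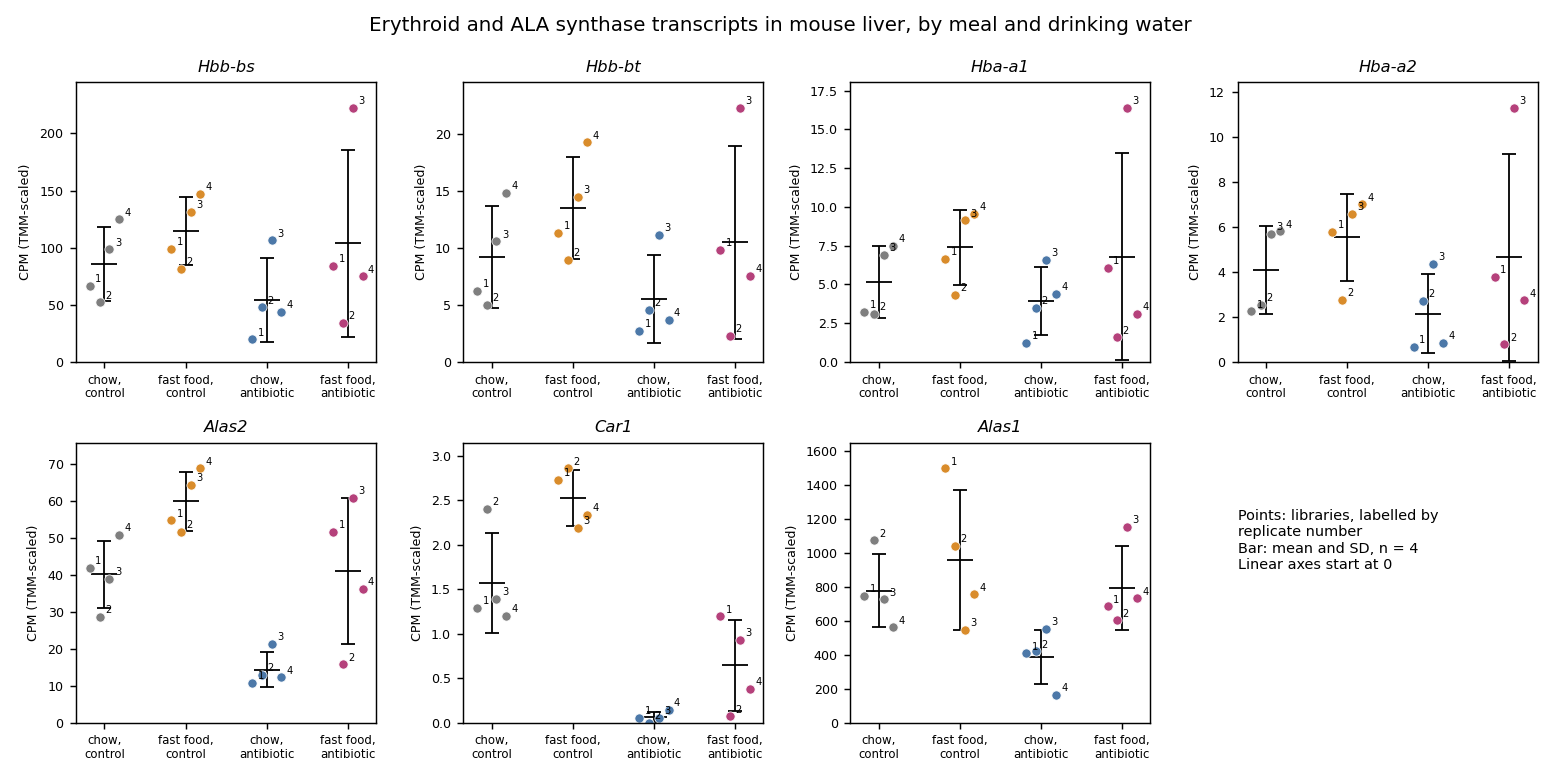
Levels of the 7 genes in CPM (vertical axes, linear from 0) in the 16 libraries by meal and water; points are libraries labelled by replicate number, bars the mean and SD of 4. Alas2 and Car1 are low in all 4 chow antibiotic libraries and in fast food antibiotic replicate 2, while the globins overlap between all groups.

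Alas2 showed the clearest group pattern among the abundant transcripts. The chow control libraries 1 to 4 held 41.9, 28.6, 38.9 and 50.8 CPM of Alas2, and the fast food control libraries 54.7, 51.6, 64.3 and 68.7 CPM. With antibiotic water the chow libraries held 10.8, 12.9, 21.3 and 12.2 CPM, and the fast food libraries 51.5, 15.8, 60.8 and 36.1 CPM. All 4 chow antibiotic libraries were below every control-water library, and fast food antibiotic replicate 2 lay among them.

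Car1, a carbonic anhydrase that is abundant in the red cell, was scarce throughout. Chow control libraries held 12, 35, 28 and 23 counts (1.57 ± 0.561 CPM, SD, n = 4), and fast food control libraries 51, 58, 43 and 46 counts (2.53 ± 0.315 CPM). The chow antibiotic libraries held 1, 0, 1 and 1 counts, 3 in all. Fast food antibiotic libraries held 12, 1, 18 and 4 counts (0.643 ± 0.51 CPM), replicate 2 again at the chow antibiotic level.

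Alas1 was the most abundant of the 7 by CPM. Its level was 747, 1074, 725 and 560 CPM in chow control livers and 1495, 1040, 545 and 756 CPM in fast food control livers. In antibiotic-treated mice it was 409, 420, 552 and 164 CPM after chow and 685, 601, 1152 and 732 CPM after fast food. The chow antibiotic livers were below all others except fast food control replicate 3, which lay just under the highest of them.

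Among the globins, Hbb-bs read 66.7, 52.1, 98.6 and 125 CPM in chow control livers and 98.8, 81.5, 132 and 147 CPM in fast food control livers. In antibiotic-treated mice it read 19.8, 47.8, 107 and 43.6 CPM after chow and 84.2, 34, 223 and 74.9 CPM after fast food. Both antibiotic groups overlapped with each other and with the control groups, and fast food antibiotic replicate 3 was the highest of the 16. The ranges over all libraries were 2.3 to 22.3 CPM for Hbb-bt, 1.22 to 16.4 CPM for Hba-a1 and 0.667 to 11.3 CPM for Hba-a2. The sum of the 4 globins was 104 ± 41.2 CPM in chow control, 141 ± 38.4 in fast food control, 66 ± 44.3 in chow antibiotic and 126 ± 102 in fast food antibiotic livers (SD, n = 4).

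Antibiotic water was then compared with control water in mice that had the chow meal. Alas2 fell, from 40 ± 9.13 to 14.3 ± 4.72 CPM (SD, n = 4), which is -1.48 ± 0.33 on the log2 scale (SE, edgeR quasi-likelihood adjusted p = 0.0059), with no overlap between the groups. Car1 fell by 4.62 ± 0.69 on the log2 scale (edgeR adjusted p = 0.000268). With 3 counts in the lower group that estimate depends on the prior count, and the ratio of pooled count rates was 27.9 in favour of control water (95% exact Poisson interval 9.26 to 138, counting error only). Car1 passed the filter on low counts only through the control-water groups, where it is high. Its p-values between the waters, here and after fast food, carry that selection. In bulk tissue, fewer cells of a type and less RNA per cell cannot be told apart. Alas1 did not pass, at -1.01 ± 0.36 (edgeR adjusted p = 0.0549), although its groups did not overlap, 386 ± 162 CPM against 777 ± 215. None of the globins passed, with log2 fold changes from -0.90 to -0.43 and edgeR adjusted p from 0.379 to 0.661. Thus 2 of the 7 genes were called (adjusted p under 0.05), both lower, where 23.8% of all tested genes were called, 13.2% were called lower and 24.8% had groups that did not overlap. The median log2 fold change of the 7 was -0.90, against -0.00575 over all genes tested.

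Both calls were kept in all 16 fits that left out 1 library. Among libraries of low ribosomal RNA-like share, chow control replicates 3 and 4 were compared with chow antibiotic replicates 1 and 3. Alas2 changed there by -1.49 ± 0.30 (edgeR adjusted p = 0.00909) and Car1 by -4.38 ± 0.57 (0.000246). Within those of high share the values were -1.47 ± 0.51 (0.199) and -4.80 ± 1.43 (0.156), where 3 genes in the whole table were called. The call of Alas1 depended on single libraries: it passed without fast food control replicate 1 (adjusted p = 0.043), fast food control replicate 3 (0.0446) or chow antibiotic replicate 3 (0.0372).

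In mice that had the fast food meal, Car1 was the 1 gene of the 7 called between the waters. It fell by 1.97 ± 0.45 on the log2 scale (SE, edgeR adjusted p = 0.0249), with no overlap between the groups. The background was 5.99% of genes called and 2.22% called lower, and 18.4% had groups that did not overlap. The Car1 call was lost without fast food control replicate 1 (adjusted p = 0.0734), 2 (0.0635) or 3 (0.0653) or fast food antibiotic replicate 4 (0.0677), and with the ribosomal RNA-like share as a covariate (-2.08, adjusted p = 0.261), a fit that called 0 genes in the table. Among the fast food libraries that share largely follows the water, so that water and share cannot be told apart well. Alas2 stood at -0.54 ± 0.32 (adjusted p = 0.302) and Alas1 at -0.28 ± 0.36 (0.668). The globins lay between -0.34 and -0.09, with adjusted p from 0.747 to 0.945.

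The fast food meal was compared with chow in each water to ask how hepatic transcripts answer a single meal. In antibiotic-treated mice Alas2 rose from 14.3 ± 4.72 to 41.1 ± 19.7 CPM (SD, n = 4), or by 1.51 ± 0.33 on the log2 scale (SE, edgeR adjusted p = 0.0118). The groups overlapped only through fast food replicate 2. Car1 rose by 3.34 ± 0.77 (edgeR adjusted p = 0.0123), from 3 to 35 counts in all, a pooled rate ratio of 11.7 (95% exact Poisson interval 3.67 to 59.2, counting error only, without the spread between livers). Alas1 was 386 ± 162 CPM with chow and 792 ± 246 CPM with fast food, 1.04 ± 0.36 on the log2 scale (edgeR adjusted p = 0.0675), with no overlap. The globins lay between 0.83 and 1.1 with adjusted p from 0.28 to 0.402. The 2 calls compare with 13.7% of all genes called and 7.78% called higher, and 14.5% of genes had groups that did not overlap. Leaving out fast food antibiotic replicate 2 gave the lowest adjusted p for Alas2 (0.000171) and Car1 (0.000478), and leaving out replicate 3 of that group the highest (0.04 and 0.0458).

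In a fit to these 2 groups alone Alas2 kept its size (1.5) with an adjusted p of 0.0773, and Car1 did not pass the filter. Among libraries of high ribosomal RNA-like share (fast food antibiotic replicates 1, 2 and 4 against chow antibiotic replicates 2 and 4) the log2 fold changes were 1.43 ± 0.48 for Alas2 (adjusted p = 0.221) and 2.96 ± 1.59 for Car1 (0.354), in a fit that called 1 gene in all.

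In mice on control water none of the 7 genes was called between the meals, where 0.577% of all genes were called (76 genes, 1515 at an unadjusted p under 0.05; DESeq2 called 299 genes and none of the 7). All 7 estimates were positive, from 0.30 for Alas1 to 0.68 for Car1. Alas2 averaged 40 ± 9.13 CPM after chow against 59.8 ± 7.99 CPM after the fast food slurry (0.58 ± 0.32, edgeR adjusted p = 0.535), and its groups did not overlap, as in 10.3% of all genes. The 7 estimates are not separate observations, because the globins share reads and all share their libraries.

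Whether the response to the meal differed between the waters was tested as an interaction. For Alas2 it was 0.94 ± 0.46 (SE, edgeR adjusted p = 0.258) and for Car1 2.66 ± 0.90 (0.0981). None of the 7 genes was called, against 3.94% of all genes (519, 2785 at an unadjusted p under 0.05; DESeq2 called 1117). Without fast food antibiotic replicate 2 both passed, Alas2 at 1.19 (adjusted p = 0.0268) and Car1 at 3.03 (0.0109), where 1494 genes were called in all. For each gene this was the only 1 of the 16 fits without 1 library that called it. That library was singled out above for its low Alas2 and Car1, so these p-values carry that choice and do not replace the full fit. The comparisons share libraries and are not independent of one another.

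**Figure D2:**
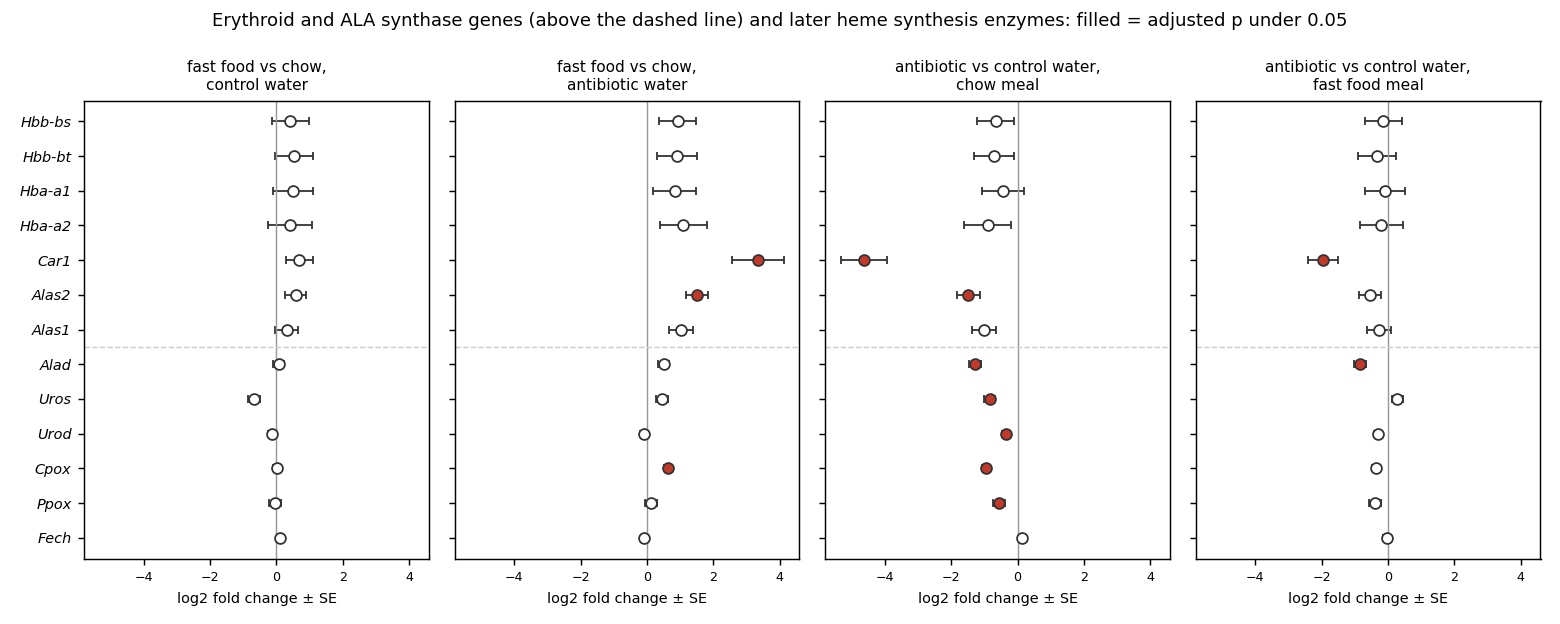
Log2 fold changes with SE (horizontal axes) of the 7 genes, above the dashed line, and of 6 later enzymes of heme synthesis, in 4 comparisons of 4 libraries each; filled points have an edgeR adjusted p under 0.05. Filled points are most frequent for antibiotic against control water after chow, where Car1, Alas2, Alad, Uros, Urod, Cpox and Ppox lie below 0.

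The globin transcripts varied together from liver to liver. Over the 16 libraries, log2 CPM of Hbb-bs and Hbb-bt correlated with r = 0.97 and rho = 0.991 (permutation p = 1e-05 for both, the smallest that 100000 resamples can give, adjusted p = 2.33e-05 over the 7 pairs computed). Hbb-bs correlated with Hba-a1 (r = 0.948, rho = 0.924) and Hba-a2 (r = 0.949, rho = 0.979), with the same permutation p. Reads that match both beta genes can add to the r of that pair, and the permutations of all pairs ignored the groups. Without the 2 libraries farthest from the median of Hbb-bs, r was 0.993, 0.898 and 0.925 for Hbb-bt, Hba-a1 and Hba-a2. After the group means were subtracted it was 0.965, 0.96 and 0.935. Within the 9 libraries of low ribosomal RNA-like share r was 0.991, 0.991 and 0.979, and within the 7 of high share 0.988, 0.654 and 0.829.

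Alas2 followed Hbb-bs with r = 0.843 and rho = 0.841 (permutation p = 2e-05 and 0.00012, adjusted 3.5e-05 and 0.00021). The value was 0.808 without the 2 farthest libraries, 0.88 after the group means were subtracted, and 0.837 and 0.869 within the low-share and high-share libraries. With Hbb-bt, Hba-a1 and Hba-a2 the r of Alas2 was 0.858, 0.724 and 0.818 over all libraries and 0.942, 0.844 and 0.851 after subtracting group means, given as a description without a test. For Alas1 with Hbb-bs r was 0.474 (rho = 0.403, permutation p = 0.0643 and 0.122, the same after adjustment), 0.331 without the 2 farthest libraries and 0.146 after subtracting group means. Within the low-share and high-share libraries it was 0.48 and 0.409. Alas1 and Alas2 correlated with r = 0.679 and rho = 0.615 (permutation p = 0.00181 and 0.0131, adjusted 0.00253 and 0.0183), and r was 0.602 without the 2 farthest libraries. The value was 0.607 and 0.703 within the low-share and high-share libraries but 0.173 after subtracting group means, so that the pooled relation rests on the differences between groups. Car1 falls into separate clusters, 5 libraries with at most 1 count and 11 with at least 4, and no pooled value is given for it.

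**Figure D3:**
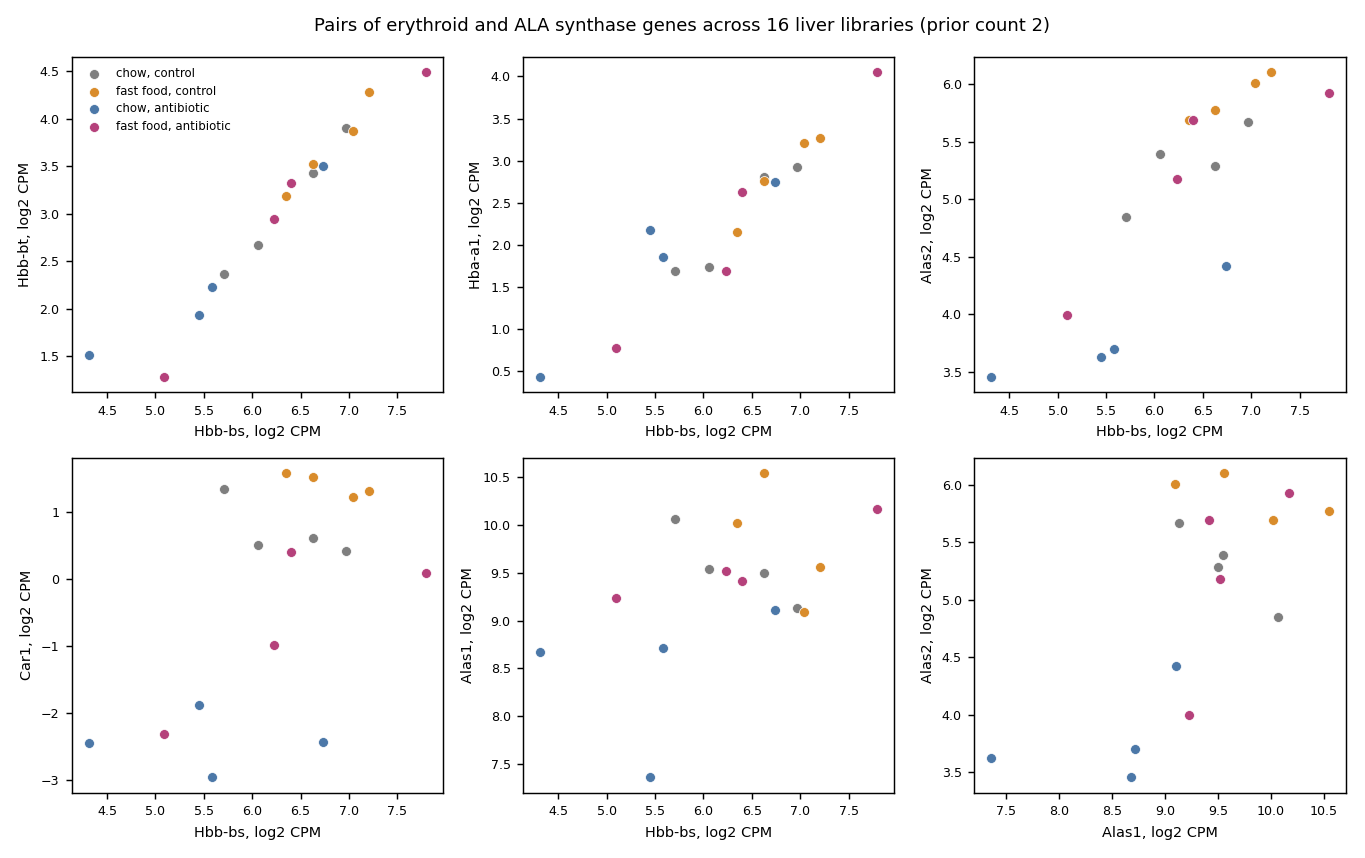
Pairs of the 7 genes in 16 libraries, log2 CPM with a prior count of 2 on both axes, coloured by group. Hbb-bt and Hba-a1 follow Hbb-bs closely (r = 0.97 and 0.948), Alas2 follows it with r = 0.843 and chow antibiotic libraries at the bottom, and Car1 separates 5 libraries at the bottom from the other 11.

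The ratio of Alas2 to Hbb-bs counts within a library removes the library's size. It was 0.495 ± 0.114 in chow control, 0.535 ± 0.075 in fast food control, 0.324 ± 0.153 in chow antibiotic and 0.458 ± 0.14 in fast food antibiotic livers (SD, n = 4). The lowest p among 8 exact two-sided permutation tests of this ratio and of Alas1 to Alas2 was 0.0857, for antibiotic against control water after chow, and all adjusted p were 0.543. With 4 against 4 libraries the smallest p is 0.0286, and a single test at that p would be adjusted to 0.229, so that no single comparison could pass. The ratio was 0.548, 0.269, 0.2 and 0.28 in chow antibiotic libraries 1 to 4. In 3 of these 4 it lay below every control-water library, of which the lowest was 0.395, and replicate 1 lay among them.

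By the highest Pearson r of log2 CPM over the 16 libraries among 13179 other genes, the other 3 globins stood nearest to Hbb-bs, and Zap70 (0.858), a kinase of T cells, was at rank 5. Alas2 ranked at 11 in that order. The nearest to Alas2 were C9, a complement component (0.959), Aspa, aspartoacylase (0.956), the cytochrome P450 gene Cyp4f15 (0.954), the major urinary protein gene Mup10 (0.953) and the neprilysin gene Mme (0.946). Seen from Alas2, Hbb-bt ranked at 251, Hbb-bs at 309, Hba-a2 at 436 and Hba-a1 at 1079. After group means were subtracted these 5 neighbours of Alas2 kept r of 0.808 to 0.943, against 0.88 for Hbb-bs. For Alas1 the nearest were Pcdh18 (0.897), Cxcl12 (0.885), Tbc1d4 (0.878), Pdp2 (0.876) and Zfp597 (0.867), and the most negative Chka, choline kinase alpha (-0.914), Ccno (-0.897), Champ1 (-0.882), Slc7a6 (-0.871) and Pgm2 (-0.865). These values describe likeness over libraries that share groups and depth.

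Of the enzymes that act after aminolevulinate synthase in heme synthesis, 6 are described: Alad, Uros, Urod, Cpox, Ppox and Fech. After chow, 5 of the 6 were lower with antibiotic water and none higher, with a median log2 fold change of -0.70, where 23.8% of all tested genes were called and 13.2% called lower. Alad, which joins 2 molecules of aminolevulinate, held 80.3, 73.6, 102 and 88.3 CPM in control livers and 36.6, 33, 33.9 and 39.2 CPM in antibiotic livers (-1.27 ± 0.18, edgeR adjusted p = 0.000156). Cpox, coproporphyrinogen oxidase, held 202, 212, 208 and 209 CPM against 109, 101, 113 and 104 CPM (-0.96 ± 0.12, edgeR adjusted p = 5.75e-05). Neither gene's groups overlapped. Uros was 15.8 ± 1.8 and 8.73 ± 2.72 CPM (SD, n = 4; -0.84 ± 0.17, edgeR adjusted p = 0.00254). Ppox changed by -0.55 ± 0.18 (0.0373) and Urod by -0.36 ± 0.12 (0.0338). Fech, ferrochelatase, which inserts the iron, was at 0.15 ± 0.09 (0.255).

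Alad, Uros and Cpox kept their calls in all 16 fits without 1 library. The count of the list was 3 without chow control replicate 3 or 4 or chow antibiotic replicate 1 or 2.

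After fast food, Alad was the 1 enzyme of the 6 called lower with antibiotic water (-0.84 ± 0.17, edgeR adjusted p = 0.0169), a call lost without fast food control replicate 1 (0.0642) while a second enzyme joined it without fast food antibiotic replicate 3. Over all tested genes 5.99% were called there and 2.22% called lower. Between the meals in antibiotic water Cpox was called higher after fast food (0.63 ± 0.12, 0.00458) in the full fit and in all 16 fits without 1 library. In that comparison 13.7% of all tested genes were called and 7.78% called higher. Leaving out replicate 3 of the chow antibiotic group or replicate 2 of the fast food antibiotic group raised the list count from 1 to 2. None of the 6 enzymes was called between meals in control water, where DESeq2 called 1, and 1 was called there without chow antibiotic replicate 3 or 4. The interaction was called for Uros (1.12 ± 0.24, adjusted p = 0.0209, 0.0514 without fast food antibiotic replicate 4), and the count was 3 without fast food antibiotic replicate 2. Uros was 9.94 ± 1.11 CPM after fast food in control water and 12.1 ± 0.853 CPM after fast food in antibiotic water, opposite in order to the chow livers.

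**Figure D4:**
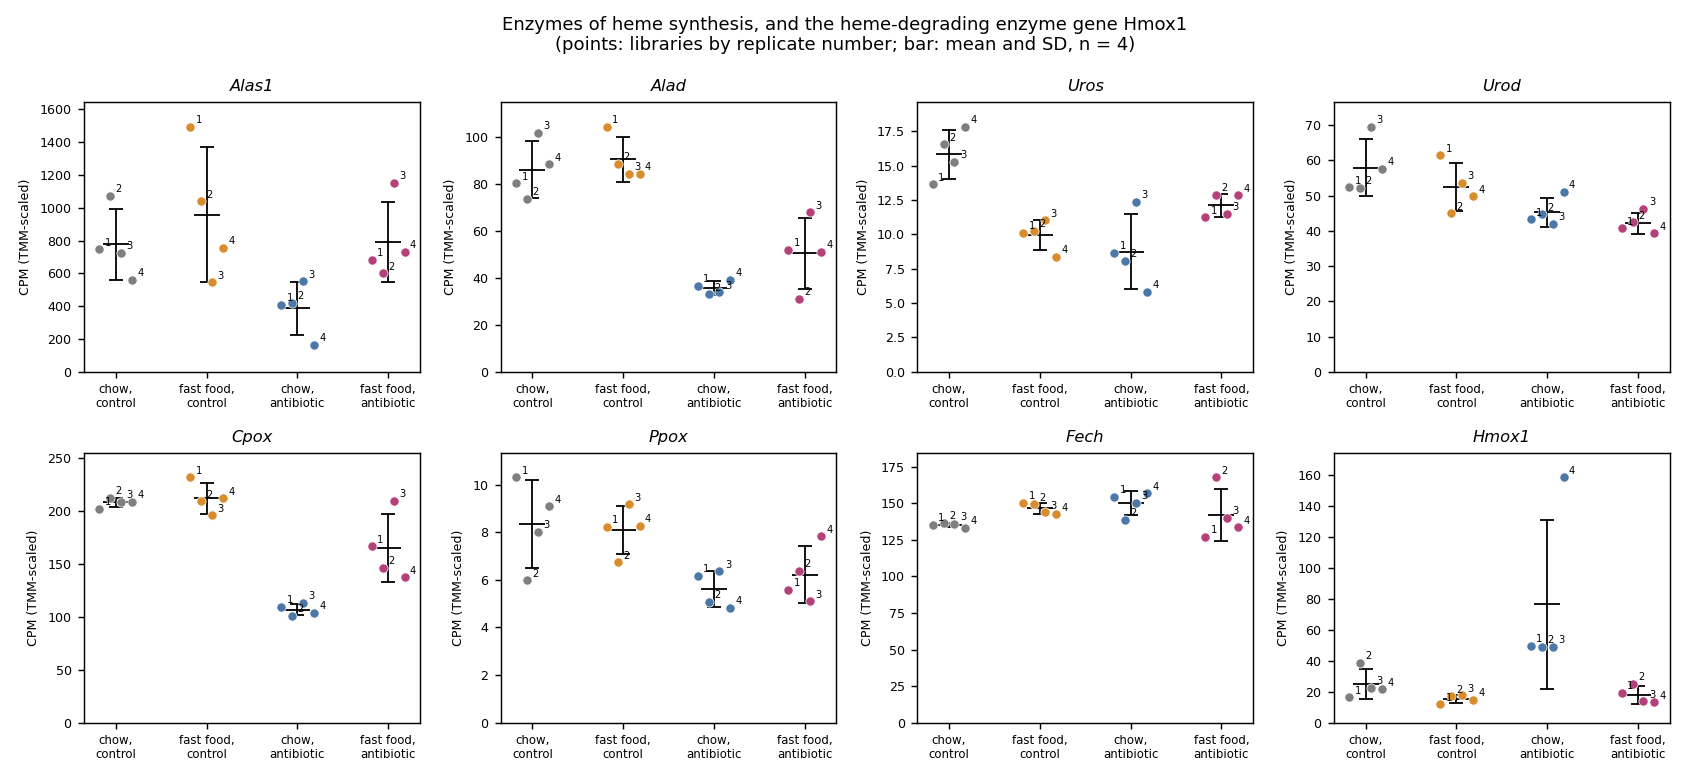
Levels in CPM (vertical axes, linear from 0) of Alas1, 6 later heme synthesis enzymes and Hmox1 in 16 libraries by group; points are libraries by replicate number and bars the mean and SD of 4. Alad and Cpox are lower in all chow antibiotic libraries than in all control-water libraries, Fech shows no such step, and Hmox1 is highest in the chow antibiotic group, with replicate 4 far above the other 3.

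Of 11 transporters of heme, its precursors and mitochondrial iron, 2 were lower and 1 higher with antibiotic water after chow, with a median of -0.05. Those 3 calls among 11 genes are close to the 23.8% called over all tested genes. Abcb6, a porphyrin transporter, changed by -0.51 ± 0.13 (SE, edgeR adjusted p = 0.0119) and Flvcr2, of the heme exporter family, by -1.46 ± 0.37 (0.0105), both called in all 16 fits without 1 library. Slc25a28, a mitochondrial iron importer, was higher (0.62 ± 0.21, 0.0397) and called in 10 of those 16. After fast food in antibiotic water Flvcr2 was higher than after chow (1.38 ± 0.37, adjusted p = 0.0256, called in 10 of 16) and Slc25a28 lower (-0.76 ± 0.21, 0.0285, called in 14 of 16).

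Among 9 genes of heme and hemoglobin clearance, Hmox1, the inducible heme oxygenase that degrades heme, held 16.3, 38.7, 22.5 and 21.5 CPM in chow control and 49.8, 49, 49 and 158 CPM in chow antibiotic livers. It rose by 1.61 ± 0.39 with antibiotic water after chow (SE, edgeR adjusted p = 0.00957) and was lower after fast food than after chow in antibiotic water (-2.09 ± 0.40, 0.00709), with both calls kept in all 16 fits without 1 library. Replicate 4 of the chow antibiotic group, the highest in Hmox1, also held the most neutrophil marker RNA of all livers, 80.5 CPM summed over 9 genes against at most 10.3 CPM in the control-water livers. Without that library the calls of Hmox1 were kept, at 1.02 ± 0.26 (edgeR adjusted p = 0.0108) and -1.49 ± 0.26 (0.00471). Hmox2 moved the same ways (0.40 ± 0.12, 0.0222, called in 14 of 16, and -0.59 ± 0.12, 0.007, called in 16 of 16). Blvrb, biliverdin reductase B, was lower with antibiotic water after chow (-0.73 ± 0.15, 0.0022, called in 16 of 16). Haptoglobin (Hp, 0.85 ± 0.42, 0.154) and hemopexin (Hpx, 0.26 ± 0.25, 0.49), which bind free hemoglobin and heme, did not pass. Lrp1, the hemopexin receptor, was higher after fast food in antibiotic water (0.67 ± 0.22, 0.048, called in 5 of 16), and Ugt1a1, which conjugates bilirubin, was lower with antibiotic water after fast food (-0.54 ± 0.15, 0.0467, called in 7 of 16).

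Of 13 genes that regulate Alas1 or its protein, 4 were lower and 3 higher with antibiotic water after chow (median -0.10). Over all tested genes 23.8% were called there and 13.2% called lower. Ppara, the fatty acid sensing receptor, fell by 1.59 ± 0.28 (SE, edgeR adjusted p = 0.00107) and Ppargc1a, a coactivator that induces Alas1 in fasting, rose by 1.45 ± 0.37 (0.0117), both called in all 16 fits without 1 library. The other 5 were Nr1i2, the pregnane receptor (-0.64 ± 0.19, 0.0239, called in 13 of 16), Bach1, a heme-binding repressor (0.95 ± 0.27, 0.0197, 15 of 16), Nr1d1, the heme-binding clock repressor (-1.03 ± 0.34, 0.0401, 9 of 16), Foxo1 (0.69 ± 0.23, 0.042, 8 of 16) and Rxra (-0.33 ± 0.11, 0.0424, 6 of 16). Nr1i3, the androstane receptor, was at 0.34 ± 0.20 (0.23). After fast food in antibiotic water Ppara was higher than after chow (1.57 ± 0.28, 0.00428, called in 16 of 16), and its interaction was called in the full fit (1.45 ± 0.38, 0.0467) and in 3 of the 16. With fast food, Foxo1 was higher with antibiotic water (0.84 ± 0.23, 0.0468, called in 5 of 16) and so was Nrf1 (0.46 ± 0.13, 0.0479, called in 3 of 16).

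A list of hepatic hemoproteins and their reductases went both ways. It is called the hemoproteins below, although it includes the reductase gene Por. With antibiotic water after chow, 6 of 16 tested members of the list were lower and 3 higher, with a median of -0.43. The shares over all tested genes were 23.8% called and 13.2% called lower. Cyp3a11 changed most, by -3.20 ± 0.53 (SE, edgeR adjusted p = 0.00106), and catalase (Cat, -1.09 ± 0.15, 0.00015) was also lower. Por, the reductase that feeds electrons to the cytochromes, was higher (1.03 ± 0.15, 0.000221), as were Tdo2, tryptophan dioxygenase (0.77 ± 0.16, 0.00303), and Cyp2c29 (1.22 ± 0.30, 0.00822). These 5 calls and that of Cyp1a2 (-1.32 ± 0.34, 0.0128) were kept in all 16 fits without 1 library. The remaining lower genes, Cyp8b1, Cyp4a14 and Cyp3a25, were called in 10, 11 and 5 of the 16, and the count of lower genes was 3 without chow control replicate 3 or 4 or chow antibiotic replicate 1 or 2. After fast food in antibiotic water Cat was higher than after chow (0.70 ± 0.15, 0.0082, called in 16 of 16) and Tdo2 lower (-0.50 ± 0.16, 0.0487, called in 5 of 16). With fast food, Cyp2e1 was lower with antibiotic water (-0.77 ± 0.17, 0.0241, called in 12 of 16) and Por higher (0.52 ± 0.15, 0.0496, called in 2 of 16).

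Other erythroid genes were checked beside Alas2 and Car1. Of 22 membrane and cytosol genes of the red cell 21 were in the table and 9 passed the filter. Slc4a1, the band 3 anion exchanger, had 0 to 11 counts per library, too few to test. Gata1, the erythroid master regulator, had 2 counts in 1 library and 0 in the other 15. The embryonic globins had 1 count in all, of Hbb-y. Klf1, another erythroid regulator, had 17 to 120 counts and did not pass with antibiotic water after chow (0.59 ± 0.24, edgeR adjusted p = 0.0804).

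Of the 9 tested membrane and cytosol genes, 2 were lower and 1 higher with antibiotic water after chow, with a median of 0.16. In this comparison 23.8% of all tested genes were called and 13.2% called lower, which also applies to the factors and receptors below. Car2, a carbonic anhydrase of red cells and several other cell types, fell by 1.01 ± 0.23 (SE, edgeR adjusted p = 0.00471, called in 16 of 16 fits without 1 library). Bpgm, which makes the red cell's bisphosphoglycerate, was lower (-0.60 ± 0.19, 0.0295, called in 12 of 16) and Bnip3l, a mitophagy receptor, higher (0.37 ± 0.11, 0.0211, called in 13 of 16). After fast food, Car2 was lower with antibiotic water (-0.81 ± 0.22, 0.043, called in 7 of 16) and Epb41 higher (1.08 ± 0.30, 0.0455, called in 6 of 16). Bnip3l (-0.47 ± 0.11, 0.0132, called in 15 of 16) and Aqp1, a water channel (-0.51 ± 0.16, 0.046, called in 4 of 16), were lower after fast food than after chow in antibiotic water. Of 6 tested erythroid factors and receptors, Zfpm1, the partner of GATA1 (-1.53 ± 0.30, 0.00245), and Lmo2 (-0.86 ± 0.22, 0.00988) were lower with antibiotic water after chow, each called in all 16. Both genes are also transcribed outside the erythroid lineage.

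Leaving out fast food antibiotic replicate 2 moved several of these list counts. Without it, 3042 genes in place of 1800 were called between the meals in antibiotic water, and 1494 in place of 519 in the interaction. In the meal comparison in antibiotic water the clearance genes went from 1 higher and 2 lower to 0 higher and 5 lower, and the hemoproteins from 1 higher and 1 lower to 4 higher and 3 lower (2 higher without chow antibiotic replicate 3). The regulators of Alas1 went there from 1 higher and 0 lower to 2 and 1, the transporters from 1 lower to 2, and the erythroid factors and receptors from 0 to 2 higher (1 higher without chow control replicate 2 or chow antibiotic replicate 1 or 4). In the interaction the hemoproteins went from 0 to 3 higher and 3 lower, the clearance genes from 0 to 3 lower and the regulators from 1 to 3 higher. The membrane and cytosol genes, the transporters and the erythroid factors each went from 0 to 1 there. Between the waters after fast food, 378 genes in place of 790 were called without this library. There the counts fell to 0 from 1 higher among the hemoproteins (the reductase gene Por) and from 2 higher among the regulators. They also fell to 0 from 1 higher and 1 lower among the membrane and cytosol genes.

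Markers of several other cell types moved with the antibiotic comparisons, but not all lists did. After chow, the summed platelet list was 19.1 to 25.7 CPM in control and 23.3 to 31.7 CPM in antibiotic livers. Of its 4 tested genes 1 was called higher. Of 6 tested genes of proliferating erythroblasts 1 was higher and 1 lower, and both counts changed without single libraries. Of all tested genes, 23.8% were called between the waters after chow (13.2% lower) and 5.99% after fast food (2.22% lower). Between the meals in antibiotic water 13.7% were called. Of 10 Kupffer cell markers, 7 were lower with antibiotic water after chow (4 without chow control replicate 3), with summed levels of 411 to 1040 CPM in chow control and 345 to 591 CPM in chow antibiotic livers. Both tested B cell markers, Ms4a1 (-2.84 ± 0.55, edgeR adjusted p = 0.00167) and Cd79b (-2.35 ± 0.66, 0.016), were lower, and the summed B and T cell list went from 1.79 to 3.57 CPM down to 0.5 to 1.56 CPM. Only these 2 of the 7 B and T cell markers in the table passed the filter on low counts. At such levels they may have passed through the control-water groups, where they are high. Their p-values between the waters, here and after fast food, may carry that selection. Of 8 hepatocyte markers 4 were higher and none lower, with summed levels of 134350 to 170400 CPM in chow control and 195900 to 256830 CPM in chow antibiotic livers. Between the meals in antibiotic water, where Alas2 and Car1 were higher after fast food, 5 of the 8 hepatocyte markers were lower (median -0.50), with a sum of 121010 to 190250 CPM after fast food. That count was 2 without chow antibiotic replicate 2 and 3, 2 and 1 without fast food antibiotic replicate 1, 3 and 4. After fast food, where Car1 was lower with antibiotic water, 6 of the 10 Kupffer cell markers and Ms4a1 (-2.72 ± 0.57, edgeR adjusted p = 0.0181) were lower too. The summed Kupffer cell list was 535 to 682 CPM in control and 293 to 415 CPM in antibiotic livers, with no overlap. The count of 6 was 1 without fast food control replicate 1 or 4 or fast food antibiotic replicate 2 or 3, and 0 without fast food control replicate 2 or 3 or fast food antibiotic replicate 4. The Ms4a1 call was lost without fast food control replicate 3. The part of these shifts in the changes of Alas2, Car1 and the heme synthesis enzymes was not tested.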

How the data were processed

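The 16 liver libraries were grouped by their titles into 4 groups of 4. The authors deposited 1 table of raw counts of reads per gene; per the labels' protocols the libraries were made with the Illumina mRNA TruSEQ kit and read as single 50-base reads, and STAR, HTSeq, FastQC, cutadapt, edgeR, DESeq2 and the build GRCm38.p6 are named, without versions, per the submitters' processing notes. A symbol was found for 24942 of 25006 gene identifiers. Genes were filtered with filterByExpr (minimum count 10), scaled with TMM factors and fitted with edgeR 4.0.16 in R 4.3.3 (robust quasi-likelihood, 4 group means, 16 libraries, common biological coefficient of variation 0.222). Contrasts were two-sided, with Benjamini-Hochberg adjustment over all 13180 tested genes and a threshold of 0.05. The SE was taken as |log2 fold change| over the root of the F statistic. The method was tested on simulated data. Precision is limited by 4 libraries per group and, for Car1, by its counts.

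The genes and the 15 lists (146 genes, 144 in the table) were chosen with earlier results of these data known. All 7 genes were named, as were the later heme synthesis enzymes, further erythroid and heme genes chosen by name, up to 6 called genes per list by lowest p in each comparison, and the 5 genes nearest in pattern to Hbb-bs, Alas2 and Alas1 (for Alas1 also the 5 most negative). Ahsp, among them, was not matched. Some genes that these rules would name are not reported here, and list counts and medians leave them out. Alternatives were DESeq2 1.42.0, RLE factors, other count filters, a replicate block, library sizes without globins, the ribosomal RNA-like share as a covariate, fits to 2 groups, leaving out 3 libraries with high acute phase transcripts (chow control 2, chow antibiotic 4, fast food antibiotic 2) and leaving out each library. Fits to low-share and high-share libraries (split at 1%) and the count ratios were chosen after seeing the data.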

Additional observations from a re-analysis of the deposited data

Results flagged for a closer look

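Chow control replicate 2 held 2.4 CPM of Car1, far above the other 3 libraries of its group, which lay between 1.2 and 1.39 CPM. Its gap to the nearest library was 0.846 of the group's range, above the limit of 0.829 for 4 samples. Of 28 groups of 4 libraries checked over the 7 genes this was the 1 that passed the limit, and chance passes about 1 in 20.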

How the results depend on the processing

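The count of genes called among the 7 was 0 in every fit run for fast food against chow in control water. For the same meals in antibiotic water it was 2, and 1 with a mean of at least 10 counts in every group (Car1 is then not tested), 0 in the fit to the 2 groups and 0 among high-share libraries. For antibiotic against control water after chow it was 2, and 0 among high-share libraries. After fast food it was 1, and 0 with the minimum mean of 10 counts or the ribosomal RNA-like covariate. For the interaction it was 0, and 2 without the 3 libraries of high acute phase transcripts. Leaving out 1 library at a time gave 0 to 0, 2 to 2, 2 to 3, 0 to 1 and 0 to 2 in the same order. Alas1 was called by DESeq2 in the meal comparison in antibiotic water (adjusted p = 0.0221) and, after chow, in the antibiotic comparison (0.0185), and there also with the minimum mean of 10 counts (0.0483). Same-numbered replicates did not clearly deviate together (correlations -0.222 to 0.191), and the main fit used no pairing. The labels do not say whether a number marks a shared cage, batch or day, and these correlations cannot show a small shared effect. The fit with a replicate block called 0, 2, 3, 1 and 0 of the 7, the addition being Alas1 after chow (-1.06, adjusted p = 0.0413).

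Over all genes, 76 were called between meals in control water (299 by DESeq2, 22 with the covariate, 160 without the 3 libraries, 365 in the fit to 2 groups, 154 among low-share libraries) and 1800 in antibiotic water (3206 without the 3 libraries, 229 in the fit to 2 groups, 1 among high-share libraries). The antibiotic comparison called 3138 after chow (3 among high-share libraries) and 790 after fast food (1531 by DESeq2, 0 with the covariate). The interaction called 519 (1117 by DESeq2, 143 with the covariate, 1851 without the 3 libraries). Without 1 library the lowest and highest counts were 11 and 155, 697 and 3042, 2301 and 3662, 78 and 1102, and 164 and 1494. The cause was not tested.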
